A study of Mus musculus with 24 samples.

Results

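PancVAX, a neoantigen peptide vaccine, was given with both checkpoint antibodies to mice bearing Panc02 pancreatic tumors, and the CD8+ T cells and macrophages of these tumors were compared with those of mice that received both antibodies without the vaccine. The comparison rested on 4 of 16 single-cell RNA libraries, a whole tumor and a Percoll library of each treatment, where Percoll is a density gradient used to enrich leukocytes. Barcodes were tied to treatments by matching the number after each barcode to the number that opens the sample's description, a link that the labels do not spell out. CD8+ T cells were the barcodes with 1 or more *Cd3e* unique molecular identifiers (UMIs), 1 or more *Cd8a* or *Cd8b1* UMIs and 0 *Cd4* UMIs, which gave 1768 cells with PancVAX and 1107 without, of 10259 such cells in all 16 libraries. Macrophages were the barcodes with 20 or more UMIs of *C1qa*, *C1qb* and *C1qc* per 10000, which gave 1536 cells with PancVAX and 2107 without, of 14423 in all.

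All mice were male wild-type C57BL/6 animals, aged 6 to 7 weeks at tumor implantation per the methods. They bore subcutaneous tumors of Panc02, a mouse pancreatic ductal adenocarcinoma line, so the tumors did not grow in the pancreas. The PancVAX + Anti-PD-1 + Anti-CTLA-4 group received PancVAX peptides (50 μg per the labels, an amount the methods give per peptide) with the AddaVax emulsion and a STING agonist on days 12 and 19, and the Anti-PD-1 + Anti-CTLA-4 group received buffer in the vaccine's place. Both groups received 100 μg anti–PD-1 repeatedly from day 12 and 100 μg anti–CTLA-4 on days 15 and 22, and tumors were taken on day 38. Tumors were pooled within a treatment. How many mice entered a pool, and whether a treatment's whole tumor and Percoll libraries came from the same ones, was not stated in the labels or methods read here. Each p-value therefore sets a difference against the spread between libraries, which may be technical and need not cover the spread between mice. Vaccine peptides, adjuvant and STING agonist were given together and cannot be told apart. PancVAX without the checkpoint antibodies (2 libraries) was set against isotype control (2 libraries) where the vaccine's effect with and without the antibodies was compared. Per the methods those mice received isotype antibodies, so "without antibodies" below means without the checkpoint antibodies.

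CD8+ T cells recognize peptides on MHC class I through a clonal αβ receptor and kill through granzymes, perforin and TNF family ligands. Cells that meet antigen for a long time in a tumor raise inhibitory receptors such as PD-1 and LAG-3 and the transcription factor TOX, whereas recently recruited effector and memory cells carry homing receptors and Ly6C. Macrophages of the C1q-expressing type take up dead cells, present antigen and make chemokines that draw T cells and neutrophils.

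Of 144994 barcodes, 57336 passed the limits on genes, UMIs and mitochondrial and hemoglobin transcripts, 13762 of them in the 4 libraries compared, which held between 101625465 and 176233225 UMIs each. The 4 libraries shared between 91 and 154 barcode sequences pairwise (6 to 28 among those that passed). Seminal vesicle transcripts marked both libraries of the antibodies alone, with 52363 and 54619 *Svs* UMIs against at most 39 in any other library. There 17 and 2 barcodes with at least 1% such UMIs were left out, after which the CD8+ T cells still held 129 and 13.2 CPM (UMIs scaled to an equal total per library) of these genes, against 0 with PancVAX. CD8+ T cells with PancVAX were shallower, with median UMIs per cell of 3177 in whole tumor and 3922 in Percoll against 5089.5 and 4977. The upper limits of 3000 genes and 10000 UMIs removed 13.3% and 18.1% of CD8+ T cells with PancVAX and 26.7% and 25.6% without.

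Hereafter the pair of values for a treatment gives whole tumor first and Percoll second. The gates matched their markers: the 10-gene T cell list, which includes the gating genes, summed to 6750 and 7094 CPM in CD8+ T cells with PancVAX and 7899 and 7736 without, and the 8-gene macrophage list to between 28198 and 34631 CPM in macrophages. Marker lists of other cells also differed between the treatments. In CD8+ T cells the macrophage list summed to 765 and 307 CPM with PancVAX against 260 and 303, and the 6-gene neutrophil list, of which *Mmp8* was at 0 in all 4 libraries, to 455 and 268 against 17.2 and 179. The 4-gene mast cell list was at 6.71 and 4.01 CPM against 11.3 and 14.1, with *Cpa3* and *Cma1* each at 0 in some libraries of both treatments. The 5-gene NK cell list was lower with PancVAX, at 116 and 123 CPM against 217 and 220, with *Ncr1* and *Klra8* at 0 in both PancVAX libraries and *Klra8* at 0 in the Percoll library without PancVAX. With PancVAX the sum thus rested on the other members alone. Whether it came from NK cells or from the CD8+ T cells themselves was not tested. In macrophages the T cell list summed to 186 and 169 CPM with PancVAX against 77.7 and 77.5, with no gene of the list at 0. The neutrophil list was lower there, at 367 and 227 CPM against 465 and 633, and the 6-gene fibroblast or stroma list was at 35.3 and 13.6 against 147 and 14.2, with no gene of either at 0.

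CD8+ T cells made up a larger share of the cells with PancVAX, and macrophages a smaller one. CD8+ T cells were 22.0% and 28.0% of cells that passed with PancVAX and 13.7% and 18.7% without, which is 25.0% ± 4.28 against 16.2% ± 3.52 (SD, n = 2 libraries). Both PancVAX libraries lay above both others, and the difference was 8.26 points in whole tumor and 9.33 in Percoll. Macrophages were 22.8% and 20.5% with PancVAX and 36.0% and 28.3% without, or 21.7% ± 1.62 against 32.1% ± 5.45, which is 13.2 points lower in whole tumor and 7.74 in Percoll. Each SD is over a whole tumor and a Percoll library, so it includes the difference between the preparations. With 2 libraries against 2 an exact two-sided permutation test that ignores preparation cannot go below p = 0.333, which both shares reached. Without the upper limits on genes and UMIs the mean differences were 5.02 and −4.44 points, in the same directions.

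In CD8+ T cells the transcriptome differed widely. Of 10460 genes tested with edgeR's quasi-likelihood test, 619 (5.92%) passed a Benjamini-Hochberg adjusted p of 0.05 and an absolute log2 fold change of 0.5, which is the rule for a call in what follows. PancVAX cells were higher for 399 genes (3.81%) and lower for 220 (2.10%), and the median log2 fold change over all genes tested was 0.0052. Called genes fell to between 248 and 371 when any 1 of the 4 libraries was left out, with 248 without the Percoll library of both antibodies, 315 and 364 without the whole tumor or Percoll library of PancVAX and 371 without the whole tumor library of both antibodies. The fit without the upper limits on genes and UMIs called 565 genes, of which 324 were shared with the 619, and the share of calls that were higher went from 64.5% to 54.5%.

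Among called genes with a mean of at least 50 normalized CPM in the higher group, the 8 largest rises were *S1pr1*, *Ccr2*, *Rgcc*, *Slco3a1*, *Nrarp*, *Ifit3*, *Itgb7* and *Rora*, and the 8 largest falls *Gzmg*, *Gzmd*, *Gzmf*, *Gzmc*, *Gzme*, *Car2*, *Lat2* and *C1qtnf6*. *Slco3a1*, an organic anion transporter, was at 60.4 and 53.8 normalized CPM with PancVAX and 8.74 and 11.3 without (log2 fold change 2.45 ± 0.18 SE, adjusted p = 1.75e-06). *Nrarp*, a target and feedback inhibitor of Notch signaling, was at 44.3 and 93.4 against 8.74 and 17.2 (2.38 ± 0.17, adjusted p = 9.8e-07). No library of one treatment overlapped one of the other for these genes. They were chosen for large changes in the same direction in both preparations, so this adds no support. *Rora*, a nuclear receptor, was at 96.9 and 119 against 25.2 and 31.8 normalized CPM, a rise of 1.93 ± 0.20 on the log2 scale (adjusted p = 3.08e-05). *Car2* (carbonic anhydrase 2) was lower, at 28.8 and 38.2 against 102 and 108 normalized CPM (−1.64 ± 0.13, adjusted p = 3.11e-06). *Lat2*, a membrane adaptor, was at 28.2 and 29.9 against 94.1 and 76.5 (−1.55 ± 0.17, adjusted p = 5.72e-05), and *C1qtnf6*, which encodes a secreted C1q/TNF-related protein, at 21.5 and 20.9 against 59.7 and 55.4 (−1.44 ± 0.17, adjusted p = 0.00014). *Lat2* is also known from mast cells and NK cells, whose summed marker levels, given above, were lower with PancVAX as well. The part of those cells in its fall was not tested. The call of each of these 6 genes held under all 16 alternatives.

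**Figure D1:**
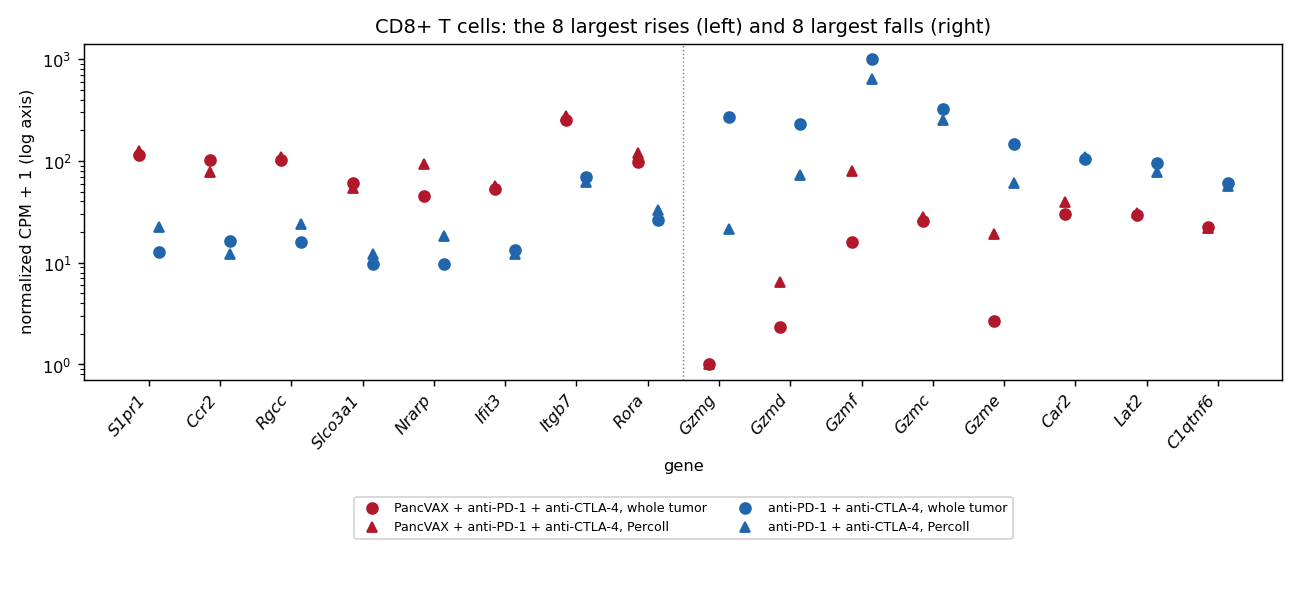
Normalized CPM plus 1 (log axis) of the 8 genes with the largest rises and the 8 with the largest falls in CD8+ T cells, 1 point per library: red, PancVAX plus both antibodies; blue, both antibodies; circles, whole tumor; triangles, Percoll. The red and blue points of a gene do not overlap, as these genes were chosen for large changes in the same direction in both preparations. *Gzmg* lies at 0 CPM in both PancVAX libraries.

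Some granzymes rose and others fell. Of 16 cytotoxic effector genes tested, 5 rose and 0 fell (median log2 fold change 0.43), whereas all 5 tested members of the granzyme C to G and N group fell (median −4.26). Over all genes 3.81% were called higher and 2.10% lower, with a median of 0.0052, and the counts of each list below stand against these shares. *Tnf* was at 47.3 and 103 normalized CPM with PancVAX and 14.4 and 27.3 without (1.91 ± 0.24, adjusted p = 0.000182), a call lost with no preparation term in the fit (adjusted p = 0.325). *Gzmk*, a granzyme typical of memory-like cells, was at 167 and 186 against 83.8 and 98.2 (0.95 ± 0.18, adjusted p = 0.00387). *Gzmb*, the main killing protease, was at 1134 and 1504 against 781 and 868 (0.67 ± 0.15, adjusted p = 0.0109). The *Gzmb* rise depended on which cells were kept: with no upper limits on genes and UMIs it turned to −0.28 (adjusted p = 0.422), and it lost its call without the Percoll PancVAX library (0.58, adjusted p = 0.102), without the whole tumor library of both antibodies (0.73, adjusted p = 0.0574) and without the Percoll one (0.61, adjusted p = 0.148). *Gzmk* lost its call with no upper limits (0.65, adjusted p = 0.0516) and without the whole tumor library of both antibodies (0.86, adjusted p = 0.0566). The other called effectors were *Gzmm* and *Fasl*. *Gzma* (log2 fold change −0.30), *Prf1* (−0.23) and *Ifng* (0.42) did not pass the test.

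Granzymes C to G are encoded next to one another beside *Gzmb* and are induced by strong or prolonged stimulation of T cells. *Gzmc* was at 24.8 and 27.3 normalized CPM with PancVAX and 324 and 254 without (−3.46 ± 0.24, adjusted p = 9.8e-07), and *Gzmf* at 15.1 and 78.9 against 998 and 641 (−4.26 ± 0.47, adjusted p = 5.77e-05). *Gzmd* was at 1.34 and 5.45 against 232 and 72.0 (−5.33 ± 0.66, adjusted p = 0.000182). *Gzmg* had 0 UMIs in both PancVAX libraries and 524 and 72 UMIs in the others, which is at least 243-fold lower in whole tumor and 27.5-fold in Percoll when 0 is read as a floor of 3 UMIs per library (adjusted p = 0.00423). When 1 of the 4 libraries was left out, the log2 fold change ranged from −5.59 (without the Percoll PancVAX library) to −3.48 (without the whole tumor library of both antibodies) for *Gzmf* and from −6.72 to −4.08, without the same libraries, for *Gzmd*. These genes are close paralogs, so reads may have been split or lost between them in counting. *Gzme* (1.68 and 18.3 against 146 and 59.1, −3.26 ± 0.74, adjusted p = 0.0137) lost its call without the whole tumor PancVAX library (−2.53, adjusted p = 0.117) or the whole tumor library of both antibodies (−2.24, adjusted p = 0.144), and *Gzmg* without the whole tumor PancVAX library (adjusted p = 0.0522).

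Few cells carried this group. Without thinning, a UMI of granzymes C to G was found in 31 of 783 cells (3.96%, exact 95% binomial interval 2.71 to 5.57) and 59 of 985 cells (5.99%, 4.59 to 7.66) with PancVAX, against 70 of 388 (18.0%, 14.3 to 22.2) and 178 of 719 (24.8%, 21.6 to 28.1) without. Macrophages of the same libraries, which should lack these genes, had a UMI in 0.614% and 2.22% of cells with PancVAX and 2.36% and 5.15% without. In each library the CD8+ T cell share lay above the macrophage share, at median depths of 4207.5 and 4892 UMIs per macrophage with PancVAX and 3313 and 4613 without. The CD8+ T cells were shallower with PancVAX (medians of 3177 and 3922 UMIs) than without (5089.5 and 4977). After each cell was thinned to 1000 UMIs, a check added after seeing the data, the CD8+ T cell shares were 1.79% and 3.05% with PancVAX against 12.9% and 15.2% without, and the macrophage shares 0.369% and 0.831% against 0.883% and 1.65%. The 10 highest cells of each library held 83.6% and 74.3% of these UMIs with PancVAX (128 and 548 UMIs in all) and 81.3% and 47.8% without (3829 and 3720 UMIs).

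A minority of the chemokine and homing genes was called. Of 11 chemokines and receptors tested, 4 rose and 1 fell (median 0.41), and of 12 integrin and homing genes 4 rose and 1 fell (median 0.29), against 3.81% and 2.10% of all genes. *Ccr2*, the receptor for the monocyte chemoattractant CCL2, was at 100 and 77.3 normalized CPM with PancVAX and 15.4 and 11.3 without (2.74 ± 0.17, adjusted p = 7.29e-07). *Ccl5*, which attracts T cells and monocytes, was among the most abundant transcripts, at 11994 and 14653 against 4858 and 4886 (1.45 ± 0.13, adjusted p = 8.83e-06). *Itgb7*, the integrin β7 chain, was at 249 and 274 against 68.4 and 60.8 (2.03 ± 0.19, adjusted p = 1.25e-05), and *Itgb1*, the integrin β1 chain, at 491 and 415 against 206 and 210 (1.11 ± 0.11, adjusted p = 1.48e-05). All 4 genes passed under all 16 alternatives. *Xcl1*, a chemokine that draws cross-presenting dendritic cells, fell from 602 and 754 to 230 and 329 normalized CPM (−1.29 ± 0.17, adjusted p = 0.000258). The others called were *Cxcr3*, *Ccrl2*, *S1pr4* and *S1pr1* (values below), which rose, and *Itgav*, which fell. *Ccr2* is also a monocyte gene, and the macrophage and neutrophil RNA given above was higher in the whole tumor PancVAX cells. Its part in these results was not tested.

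Of 15 naive, stem-like and memory genes tested, 5 rose and 1 fell (median 0.51). *S1pr1*, the sphingosine 1-phosphate receptor that lets T cells leave tissue, was at 113 and 125 normalized CPM with PancVAX against 11.8 and 21.4 (2.76 ± 0.26, adjusted p = 1.33e-05, and 3.36 without the Percoll library of both antibodies). *Klf2*, the transcription factor that drives *S1pr1*, was at 662 and 644 against 257 and 292 (1.24 ± 0.15, adjusted p = 0.000173). *Tcf7*, *Lef1* and *Il7r* rose as well, and the gene that fell was *Xcl1*, which this list also holds. *Il7r*, the IL-7 receptor chain, was at 219 and 204 against 133 and 118 (0.75 ± 0.17, adjusted p = 0.0117) and lost its call with no upper limits on genes and UMIs (0.43, adjusted p = 0.0758), without the Percoll PancVAX library (0.66, adjusted p = 0.106) or the whole tumor (0.71, adjusted p = 0.102) or Percoll (0.80, adjusted p = 0.0982) library of both antibodies.

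Of 15 inhibitory receptor and exhaustion genes tested, 1 rose (*Nrp1*) and 5 fell (median −0.43), against 3.81% and 2.10% of all genes. *Tox*, the factor that establishes the exhausted state, was at 106 and 120 normalized CPM with PancVAX and 224 and 230 without (−0.998 ± 0.12, adjusted p = 0.000167). *Cd244a*, which encodes the receptor 2B4, was at 23.5 and 21.1 against 66.9 and 50.6 (−1.38 ± 0.19, adjusted p = 0.000358). *Cd160* was at 52.3 and 78.2 against 135 and 142 (−1.08 ± 0.20, adjusted p = 0.00342). *Cd244a* and *Cd160* are NK cell receptors too, and the NK cell list was lower in the same cells (116 and 123 against 217 and 220 CPM). Its part was not tested. No library overlapped between the treatments for these 3 genes, which adds no support because they were named as calls. *Cd160* lost its call without the whole tumor PancVAX library (−0.86). *Lag3* and *Rgs16* also fell. *Pdcd1*, which encodes PD-1, the target of 1 of the antibodies, was at 328 and 413 against 529 and 471 and did not pass (−0.43, adjusted p = 0.194), nor did *Havcr2*, *Ctla4* and *Tigit*.

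Of 14 effector transcription factors tested, 1 rose and 3 fell (median −0.10), against 3.81% and 2.10% of all genes. *Irf8* was at 110 and 120 normalized CPM with PancVAX against 302 and 285 (−1.35 ± 0.13, adjusted p = 1.33e-05), and *Ikzf2*, which encodes Helios, at 82.9 and 73.2 against 216 and 169 (−1.29 ± 0.12, adjusted p = 1.57e-05). Both are also expressed in cells other than CD8+ T cells, *Ikzf2* in NK cells. The summed NK cell list was lower with PancVAX, with the limit given above. The part of other cells was not tested. *Rbpj* fell too, and *Bhlhe40* rose from 353 and 531 to 517 and 804 (0.58 ± 0.08, adjusted p = 0.000518). That call was lost without the upper limits on genes and UMIs (0.32, adjusted p = 0.0989) and with no preparation term in the fit (adjusted p = 0.549).

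Of 20 activation-induced genes tested, 9 rose and 0 fell (median 0.57), among them the nuclear receptors *Nr4a1* and *Nr4a3*, the early factors *Egr1*, *Junb* and *Rel*, the inhibitors *Nfkbia* and *Nfkbid* and the phosphatases *Dusp2* and *Dusp5*. *Nfkbia*, which encodes IκBα, the NF-κB inhibitor that NF-κB itself induces, was at 818 and 1204 normalized CPM with PancVAX and 292 and 452 without (1.46 ± 0.16, adjusted p = 4.69e-05). Its lowest log2 fold change among the 16 alternatives was 0.83, and its call was lost with no preparation term in the fit (adjusted p = 0.231). *Nfkbid* was at 60.4 and 63.8 against 26.7 and 20.3 (1.44 ± 0.20, adjusted p = 0.000483), and *Nr4a1*, induced by receptor signaling, at 321 and 314 against 107 and 149 (1.35 ± 0.24, adjusted p = 0.00299). *Nr4a1* lost its call without the Percoll library of both antibodies (1.32, adjusted p = 0.0678). Tissue dissociation also induces several of these genes, and its part was not tested. Of 8 costimulatory receptors 1 rose and 1 fell (median 0.17), against 3.81% and 2.10% of all genes. *Icos* was at 202 and 212 against 86.4 and 86.4 (1.26 ± 0.14, adjusted p = 5.64e-05), and *Tnfrsf9*, which encodes 4-1BB, at 244 and 343 against 465 and 483 (−0.70 ± 0.13, adjusted p = 0.00296), with its call lost without the whole tumor PancVAX library (−0.55, adjusted p = 0.0669).

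Of 18 cytokine and interferon receptor genes tested, 5 rose and 0 fell (median 0.46). *Il18r1* was at 101 and 73.0 normalized CPM with PancVAX against 45.3 and 43.9 (0.93 ± 0.12, adjusted p = 0.000292). Its partner chain *Il18rap* was at 55.7 and 44.6 against 28.8 and 28.4 (0.77 ± 0.15, adjusted p = 0.00478), a call lost with no upper limits on genes and UMIs (0.38, adjusted p = 0.215), with DESeq2 (0.79, adjusted p = 0.0537) and without the whole tumor library of both antibodies (0.62, adjusted p = 0.0742). *Il12rb2*, *Il7r* and *Ifngr1* were the other 3. *Ifngr1*, the ligand-binding chain of the IFN-γ receptor, was at 734 and 888 against 555 and 573 (0.52 ± 0.13, adjusted p = 0.0209) and lost its call without any 1 of the 4 libraries (0.42 to 0.62) and with no upper limits (0.29, adjusted p = 0.255). *Il21r*, the IL-21 receptor, was at 177 and 289 against 152 and 162 and did not pass (0.56 ± 0.17, adjusted p = 0.0623). It passed under 7 of the 16 alternatives, among them without the whole tumor PancVAX library (0.77). Another was the fit of the 4 compared libraries alone (0.56, adjusted p = 0.0183), where few libraries are left to estimate the spread. *Ifnar1*, a chain of the type I interferon receptor, was at 76.8 and 88.9 against 71.5 and 81.3 (0.11 ± 0.14, adjusted p = 0.732).

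The interferon-stimulated list was the one with the largest share called among those above 5 tested members. Of 25 genes tested, of 28 listed, 14 rose and 0 fell, against 3.81% of all genes higher, and all 25 fitted log2 fold changes were above 0 (median 0.98). *Ifit3* was at 52.0 and 55.9 normalized CPM with PancVAX and 12.3 and 11.3 without (2.21 ± 0.15, adjusted p = 9.8e-07). Its call held under all 16 alternatives, with a lowest log2 fold change of 1.03. *Ifit1* was at 38.9 and 32.2 against 12.3 and 6.19 (2.02 ± 0.24, adjusted p = 0.000143), a call lost without the upper limits on genes and UMIs (0.83, adjusted p = 0.0522). Both encode tetratricopeptide proteins that act against viral RNA. *Rtp4* was at 59.4 and 52.1 against 27.8 and 23.4 (1.13 ± 0.13, adjusted p = 8.91e-05). *Isg15*, *Ifit1bl1*, *Ifit3b*, *Oas3*, *Rsad2*, *Irf7*, *Usp18*, *Bst2*, *Zbp1*, *Ifi27l2a* and *Ifi213* were the other genes called. *Ifit3* and *Ifit3b* are near-identical copies whose reads could be split. For PancVAX against isotype control, libraries not used in this comparison, the median of the list was 1.22.

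The factors that switch such genes on after interferon bind a repeat of GAAA. Promoter stretches from RefSeq (GRCm38.p6, 250 bases before the start site) were searched on both strands for the letters GAAANNGAAA, overlapping matches included. A promoter was matched for 10 of the 14 called genes, and 9 of these (90%) held the letters. Of 10 genes that were tested but not called and had a promoter, 4 (40%) held them, against 936 of 27025 genes overall (3.46%). Among the called genes *Usp18*, *Rtp4*, *Zbp1* and *Ifi27l2a* had no entry. The stretches of 3 called genes are shown as examples that hold more than 1 match. They read 5′ to 3′ on the gene's strand, with each match, in either orientation, in capitals. They lie upstream of the transcripts. The stretches themselves span chr19:34583328-34583461 (plus strand, *Ifit3*), chr19:34640740-34640858 (plus strand, *Ifit1*) and chr4:156200830-156200941 (minus strand, *Isg15*, with 3 overlapping matches). The list was chosen as interferon-stimulated, so its share against that of all genes adds no support. *Ifit3* and *Ifit3b*, counted as separate genes, hold the same stretch. A match is a description of the letters and no evidence of binding.
Ifit3: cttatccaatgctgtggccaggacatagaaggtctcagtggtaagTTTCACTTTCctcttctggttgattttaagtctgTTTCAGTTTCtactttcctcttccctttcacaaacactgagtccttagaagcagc
Ifit1: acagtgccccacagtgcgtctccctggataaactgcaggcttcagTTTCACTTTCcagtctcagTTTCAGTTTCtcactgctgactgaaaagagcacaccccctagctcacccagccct
Isg15: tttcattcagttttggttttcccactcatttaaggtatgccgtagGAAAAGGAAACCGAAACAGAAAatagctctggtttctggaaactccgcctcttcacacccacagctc

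Of 19 Ly6, Ifitm, S100 and galectin genes tested, 9 rose and 0 fell (median 0.51). *Ly6c2*, a surface protein of effector and memory CD8+ T cells, was at 1737 and 1592 normalized CPM with PancVAX and 508 and 483 without (1.75 ± 0.13, adjusted p = 1.36e-06). *Ly6a*, which encodes Sca-1, was at 751 and 543 against 308 and 212 (1.32 ± 0.11, adjusted p = 3.25e-06). *Lgals3*, which encodes galectin-3, was at 744 and 783 against 194 and 218 (1.89 ± 0.11, adjusted p = 2.89e-07). Each stood apart from the spread between libraries, and without the upper limits on genes and UMIs *Lgals3* was at 0.84 (adjusted p = 0.00933). Several genes of this list are also abundant in neutrophils and macrophages. The summed neutrophil and macrophage markers are given above, and their part in these calls was not tested.

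**Figure D2:**
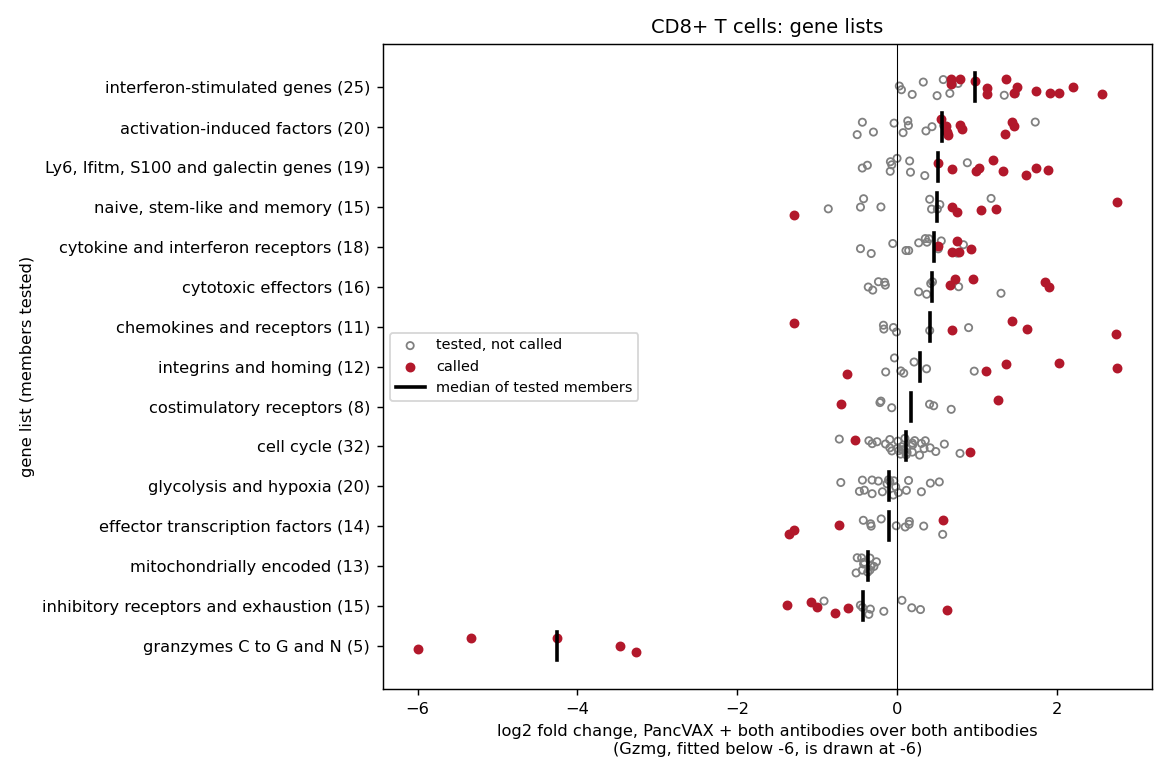
Log2 fold change in CD8+ T cells, PancVAX plus both antibodies over both antibodies, for every tested member of 15 gene lists, with the number tested in parentheses: filled red, called; open grey, tested but not called; black bar, median of the tested members. Interferon-stimulated genes have the highest median (0.98) and granzymes C to G the lowest (−4.26), and *Gzmg* is drawn at the left edge because its fitted value depends on 0 UMIs in both PancVAX libraries.

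Of 32 cell cycle genes 1 rose and 1 fell (median 0.11), a share near the 5.92% of all genes called, of 20 glycolysis and hypoxia genes 0 were called (median −0.10) and of 13 mitochondrially encoded genes 0 were called, although all 13 were below 0 (median −0.37). *Rrm2*, a subunit of ribonucleotide reductase, was at 61.4 and 40.5 normalized CPM with PancVAX against 26.7 and 26.5 (0.91 ± 0.19, adjusted p = 0.00675). That call was lost without the whole tumor PancVAX library (0.59, adjusted p = 0.111) or the whole tumor (0.90, adjusted p = 0.0606) or Percoll (0.94, adjusted p = 0.0915) library of both antibodies, and the value was −0.018 without the upper limits on genes and UMIs. *Cenpa*, the centromeric histone, was at 106 and 108 against 138 and 168 (−0.52 ± 0.14, adjusted p = 0.0385), a call lost without any 1 of the 4 libraries (−0.65 to −0.36). *Mki67* did not pass (−0.14).

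Shares of cells with a UMI were compared after thinning each CD8+ T cell to 1000 UMIs, because depth differed. A *Ly6c2* UMI was found in 60.7% and 58.2% of cells with PancVAX and 17.8% and 17.7% without (71.1% and 68.4% against 30.4% and 29.2% before thinning), and in 0.88% to 3.44% of macrophages. *Gzmb* was found in 48.8% and 54.7% against 32.5% and 34.2% (69.9% and 72.9% against 53.1% and 55.6% before thinning), with 0.64% to 2.70% in macrophages. With no upper limits on genes and UMIs, where the fitted *Gzmb* change turned negative, its thinned shares were 45.4% and 49.3% against 34.2% and 34.3%. *Tcf7*, the transcription factor of naive and stem-like cells, was found in 5.11% and 4.47% against 2.32% and 1.67% (14.2% and 15.4% against 10.3% and 10.0% before thinning), with at most 0.37% in macrophages. *Pdcd1* was found in fewer cells with PancVAX, 25.8% and 27.5% against 33.2% and 32.5% (47.8% and 56.8% against 71.1% and 70.4% before thinning), with 0.20% to 0.97% in macrophages. These 4 genes each gave an exact permutation p = 0.333, the smallest that 2 against 2 libraries allow when preparation is ignored. *Havcr2*, which encodes TIM-3, was found in 2.13% to 2.94% of CD8+ T cells in the 4 libraries, and in 4.12% to 5.68% of macrophages, which can express the gene themselves, so that no background level was available and no difference between the treatments is read from it. *Mki67*, a proliferation marker, was found in 8.05% and 3.25% with PancVAX against 4.38% and 6.82%, so the treatments overlapped.

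Antigen receptor segments were called in both directions. Of 86 receptor and immunoglobulin segments tested, 12 were higher and 17 lower with PancVAX, against 3.81% and 2.10% of all genes, with 5 higher and 5 lower among 21 TRBV segments and 7 higher and 4 lower among 47 TRAV segments. *Trbv19* was at 79.5 and 113 normalized CPM with PancVAX against 7.20 and 14.4 (3.09 ± 0.26), and *Trbv12-1* at 32.5 and 21.6 against 99.3 and 83.6 (−1.77 ± 0.19). A segment's level follows from a few large clones as well as from many small ones. *Tcrg-C2*, a constant segment of the γ chain, was at 41.9 and 35.1 against 128 and 124 (−1.72 ± 0.15), and all 6 called γ chain genes were lower. *Fcer1g*, a signaling adaptor of NK and innate-like T cells chosen here after its values were seen, was lower as well (−1.01).

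The clonal make-up was read from receptor contigs in the Percoll libraries, 1 per treatment, so no test of the treatment could be made. Of the CD8+ T cells, 87.4% with PancVAX and 89.8% without had a TRB chain, and clones were defined among cells with exactly 1 TRB chain by the V gene and the CDR3 nucleotide sequence. With PancVAX 836 cells fell into 416 clones, and without it 637 cells into 212. Cells in clones of 2 or more made up 67.0% (exact 95% binomial interval 63.7 to 70.2) with PancVAX and 76.6% (73.1 to 79.8) without, where the intervals cover counting error only. Thinned to 637 cells, the PancVAX library gave 62.5%. The 10 largest clones held 20.6% of cells with PancVAX and 42.2% without. In each treatment 2 clones were shared with the other, which is 0.481% of the clones with PancVAX and 0.943% without.

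**Figure D3:**
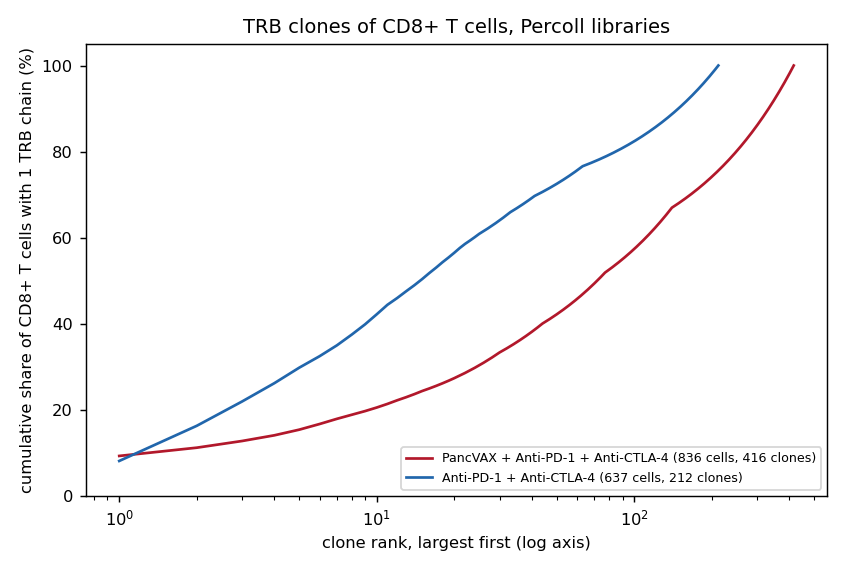
Cumulative share of CD8+ T cells with 1 TRB chain (percent) against clone rank, largest first (log axis), in the Percoll libraries: red, PancVAX plus both antibodies (836 cells, 416 clones); blue, both antibodies (637 cells, 212 clones). After the largest clone the red line runs below the blue one, with 20.6% against 42.2% of cells in the 10 largest clones.

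The CDR3 sequences of the largest clones are shown because the results below rest on them. With PancVAX the largest clone used TRBV20 and had 78 cells (9.33%). Without PancVAX the largest were a TRBV16 and a TRBV5 clone of 52 cells each (8.16%).
TRBV20, PancVAX plus both antibodies: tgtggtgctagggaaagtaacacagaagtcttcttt
TRBV16, both antibodies: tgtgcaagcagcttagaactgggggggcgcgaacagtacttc
TRBV5, both antibodies: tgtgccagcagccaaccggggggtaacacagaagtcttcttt

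Several genes that rose with PancVAX were at a lower level in expanded clones than in single-cell clones of both treatments, and others were not. These levels are CPM over summed cells of 1 library a side (560 expanded and 276 single cells with PancVAX, 488 and 149 without), for genes chosen after their values were seen, and are a description. *Ly6c2* was at 1305 CPM in expanded and 2028 in single-cell clones with PancVAX, and at 215 and 1334 without. *S1pr1* was at 95.5 and 158 with PancVAX against 1.52 and 68.7, and *Ifit3* at 50.9 and 70.8 against 3.79 and 37.0. Without PancVAX, *Lgals3* (240 and 135), *Gzmk* (96.7 and 75.3), *Il7r* (124 and 102) and *Icos* (85.7 and 74.0) were at a higher level in expanded than in single-cell clones. *Ccl5* differed little by clone size, at 13683 and 14626 with PancVAX and 4218 and 4755 without. *Tox* was higher in expanded cells of both treatments, at 159 against 63.2 CPM in single-cell clones with PancVAX and 250 against 119 without. *Gzmf* showed the same order, at 99.9 and 6.74 with PancVAX and 723 and 299 without.

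The TRBV20 clone stood apart from the other expanded PancVAX cells. Its 78 cells were at 33.5 CPM *Ly6c2*, 2.23 *S1pr1*, 321 *Gzmb*, 4383 *Ccl5*, 651 *Lag3* and 344 *Tox*. The other 482 expanded cells were at 1579 *Ly6c2*, 116 *S1pr1*, 1665 *Gzmb*, 298 *Lag3* and 120 *Tox*, and the expanded cells of both antibodies alone at 215 *Ly6c2*, 1.52 *S1pr1*, 836 *Gzmb*, 406 *Lag3* and 250 *Tox*. Other genes kept another order: *Icos* was at 187 CPM in the clone, 203 in the other expanded PancVAX cells and 85.7 with both antibodies alone, and *Gzmc* at 0, 34.05 and 274. The TRBV20 clone also held 12 of the 52 cells with a UMI of granzymes C to G among PancVAX cells with 1 TRB chain, and 28.7% of their UMIs, with those 52 cells in 33 clones. A clone of 4 cells annotated TRBV12-2+TRBV13-2 held a similar share of the UMIs, 27.7%, in 3 cells. Without PancVAX 162 such cells spread over 70 clones, with 12.5% of the UMIs in the TRBV16 clone and 11.9% in the TRBV5 clone.

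Whether the vaccine's effect in CD8+ T cells differed with and without the antibodies was tested as the difference between this effect and that of PancVAX against isotype control, which share no library. PancVAX against isotype control gave 548 calls (5.24%). The difference was called for 12 genes (0.115%), 5 higher (0.0478%) and 7 lower (0.0669%), of which 4 were receptor segments and 2 were *Hspa1b* and *Hist1h3e*, besides the 6 described here. *Rgcc*, a regulator of the cell cycle, was at 100 and 109 normalized CPM with PancVAX plus both antibodies against 14.9 and 23.1 with both antibodies, and at 61.5 and 95.4 with PancVAX against 29.9 and 70.1 with isotype control, so its rise was larger with the antibodies. The same held for *Csrnp1*, an early response gene, at 98.0 and 188 against 37.0 and 69.5 with the antibodies and 69.6 and 154 against 51.5 and 108 without. *Gzmc* fell further with the antibodies, from 324 and 254 to 24.8 and 27.3, than without, from 263 and 290 to 75.4 and 130. *Nr4a3* was at 98.0 and 141 against 64.3 and 92.3 with the antibodies and at 48.9 and 72.6 against 66.0 and 131 without, in opposite directions. *Hspa1a*, an inducible HSP70 gene with the near-identical copy *Hspa1b*, was at 61.7 and 77.3 against 79.2 and 76.5 with the antibodies and at 56.1 and 70.7 against 14.4 and 22.7 without. *Hist1h1d*, a linker histone, was at 69.1 and 23.5 against 76.1 and 55.2 with the antibodies and at 86.6 and 47.5 against 44.3 and 15.8 without. Each of these 6 calls was lost without at least 1 of the 8 libraries, with the highest adjusted p at 0.214 for *Rgcc* and *Hist1h1d* (without Percoll isotype control), 0.369 for *Csrnp1* (without Percoll both antibodies), 0.19 for *Gzmc* and *Nr4a3* (without Percoll PancVAX) and 0.0523 for *Hspa1a* (without whole tumor isotype control).

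**Figure D4:**
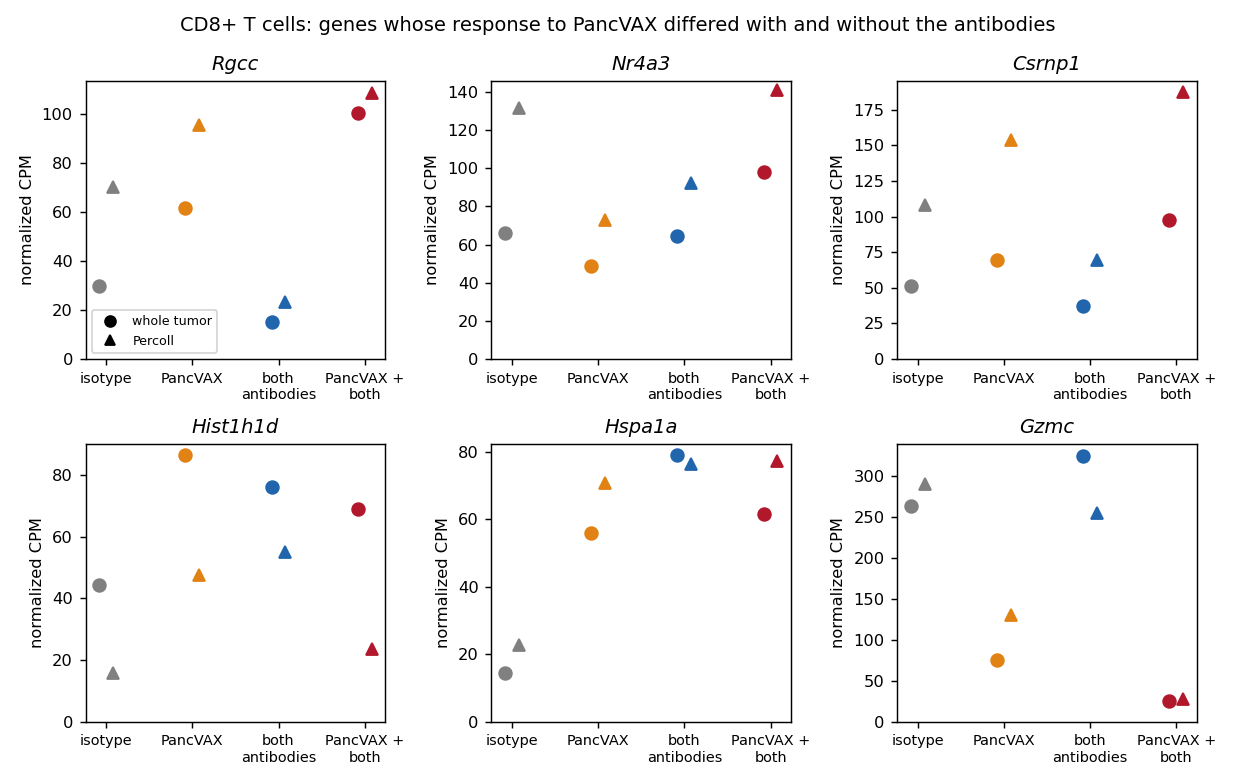
Normalized CPM of the 6 genes named for the difference of effects in CD8+ T cells under isotype control, PancVAX, both antibodies and PancVAX plus both antibodies: circles, whole tumor; triangles, Percoll, 1 point per library. *Rgcc*, *Gzmc* and *Csrnp1* move the same way in both pairs of treatments and further with the antibodies, and *Hspa1a* is low only under isotype control (14.4 and 22.7).

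Macrophages gave no call. Of 11239 genes tested with edgeR's quasi-likelihood test, 0 (0%) passed, 703 had an unadjusted p under 0.05, and the median log2 fold change was 0.00289. The count depended on the fit: DESeq2 called 12 genes, edgeR on the 4 compared libraries alone 176, and edgeR without the Percoll library of PancVAX + Anti-PD-1, which stood apart in its share of barcodes that passed (61.9%), 44. That last setting was chosen after seeing the data. The fit of the 4 compared libraries alone leaves few libraries from which to estimate the spread. The difference between the vaccine's effects with and without antibodies gave 0 calls in macrophages (736 genes at an unadjusted p under 0.05, 8 calls by DESeq2).

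All 18 macrophage lists had 0 calls in either direction. The median log2 fold change was 0.31 for the M1-type list and 0.13 for the M2-type list. It was 0.23 for monocyte genes, 0.22 for matrix genes and 0.21 for heat shock genes. MHC class II genes (0.04), MHC class I genes (0.07), interferon-γ-induced genes (0.01) and interferon-stimulated genes (0.05) stayed near the median of all genes. Cell cycle genes (−0.22), mitochondrially encoded genes (−0.22) and glycolysis genes (−0.14) had medians below 0. The other 6 lists, among them lipid handling (−0.06), resident and mature macrophage genes (−0.02) and checkpoint and costimulatory ligands (0.11), lay between −0.06 and 0.11.

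*Ccl5* was at 437 and 538 normalized CPM in macrophages with PancVAX and 152 and 194 without (1.49 ± 0.26, adjusted p = 0.123), and *Gzmb* at 39.6 and 27.8 against 4.53 and 5.03 (2.81 ± 0.57, adjusted p = 0.175). Neither passed in the fit of all 16 libraries, although *Ccl5* did under 6 and *Gzmb* under 4 of the 16 alternatives. The libraries of the treatments did not overlap for either gene, but the share of all genes with this trait was not counted. Both are at a far higher level in CD8+ T cells, and *Cd3e*, a T cell gene, was found in 4.42% and 4.16% of macrophages with PancVAX and 1.47% and 1.47% without. Without macrophages that had a *Cd3e* UMI the log2 fold change was 0.30 for *Ccl5* and 1.49 for *Gzmb*. That setting leaves out barcodes by a T cell gene, so a lower level of T cell genes is built into it. The part of T cell RNA in these values was not tested. *Ifnar1* (0.14), *Il21r* (0.37) and *Ifngr1* (0.15) did not pass under any of the 16 alternatives.

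The 44 genes called without the Percoll library of PancVAX + Anti-PD-1 comprised 36 higher and 8 lower genes. Of the 36, 24 were at a higher level in CD8+ T cells than in macrophages over the 16 libraries, among them *Thy1* (24.8 and 24.9 against 5.97 and 4.83 normalized CPM), *Ms4a4b* (43.9 and 33.7 against 11.7 and 7.45) and *Lat* (14.5 and 15.5 against 4.77 and 1.61), which encode T cell surface and signaling proteins. Others of the 24 differed less between the cell types, such as *Nfkbia* (745 CPM in CD8+ T cells and 593 in macrophages) and *Odc1* (272 and 245). The same share was not counted over all genes tested, so 24 of 36 has nothing to stand against. The part of T cell RNA was not tested. The other 12 of the 36 were at a higher level in macrophages. *Retnla*, a secreted product of alternatively activated macrophages, was at 83.8 and 339 against 3.58 and 0.403, and *Lyve1*, a hyaluronan receptor of tissue-resident macrophages, at 16.1 and 7.62 against 0.955 and 0.201. *Vcam1*, an adhesion molecule, was at 543 and 565 against 359 and 423 normalized CPM. Its adjusted p was 0.0229 without that library and 0.123 with all 16. *Cxcl1*, a neutrophil chemoattractant, was at 39.6 and 119 against 14.1 and 38.8, and *Ptgs2*, which encodes cyclooxygenase 2, at 210 and 189 against 104 and 153. *Cbr2*, a carbonyl reductase of resident macrophages, was at 49.9 and 34.3 against 20.04 and 17.9. *Lyve1* and *Cbr2* are not in the resident and mature macrophage list, which did not rise as a whole. Of its 17 tested members 8 were above 0 and 9 below (median −0.02, highest 0.44), and its lowest value (−0.99) was that of *Fcrls*. *Fcrls* (31.6 and 26.4 against 65.4 and 50.3) and *Tmem119* (18.1 and 14.4 against 34.6 and 29.99), both best known from microglia, were lower. The other lower genes included 3 *Svs* genes and the muscle genes *Acta1*, *Tnnc2* and *Tnnt3*. These genes were named after their values were seen.

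**Figure D5:**
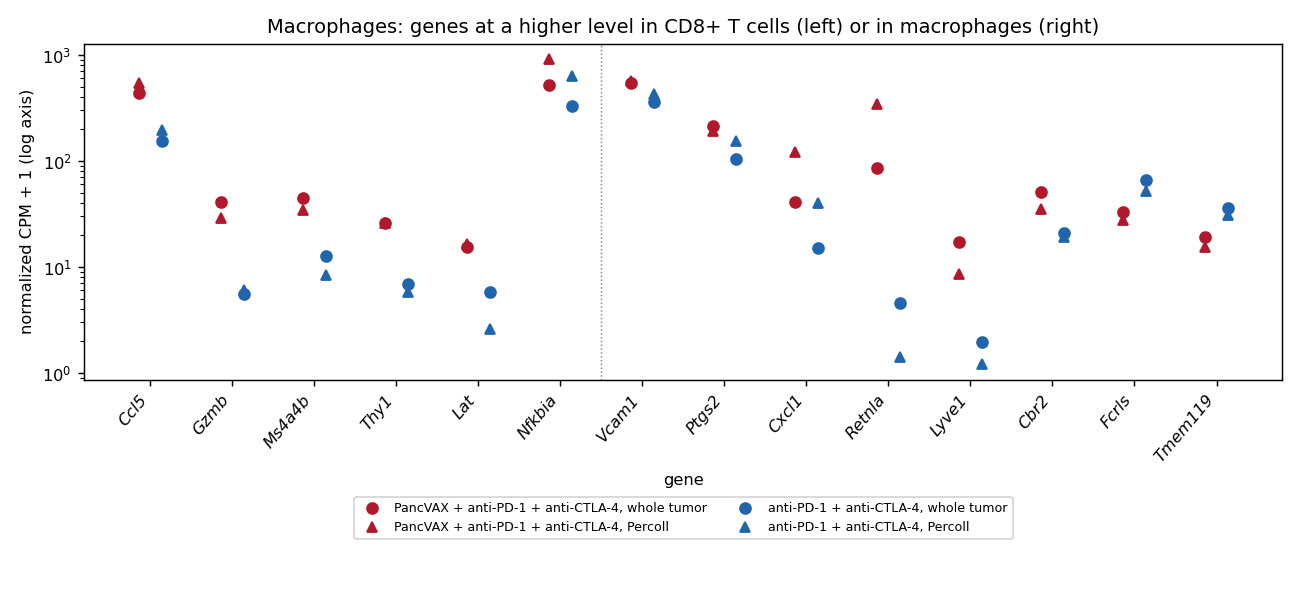
Normalized CPM plus 1 (log axis) in macrophages of genes at a higher level in CD8+ T cells (left of the dotted line) or in macrophages (right), 1 point per library: red, PancVAX plus both antibodies; blue, both antibodies; circles, whole tumor; triangles, Percoll. None was called in the fit of all 16 libraries, and *Retnla* shows the widest gap, at 83.8 and 339 against 3.58 and 0.403.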

How the data were processed

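The authors deposited UMI counts per gene and barcode for 16 10x 5′ libraries, made per the labels with Cell Ranger 4.0.0 against mm10, and T cell receptor contigs for the 8 Percoll libraries. Barcodes with 200 to 3000 genes, 1000 to 10000 UMIs, under 10% mitochondrial UMIs and 0 hemoglobin UMIs were kept. No doublet caller was run. Counts of gated cells were summed by library and scaled to CPM by TMM (normalized CPM). edgeR 4.0.16 (limma 3.58.1, R 4.3.3) fitted treatment and preparation over all 16 libraries after filterByExpr, with quasi-likelihood tests and Benjamini-Hochberg adjustment. An adjusted p refers to this test unless DESeq2 is named. Errors of log2 fold changes are standard errors. Alternatives included DESeq2 1.42.0 and changed filters, gates and libraries. Python 3.11.15, numpy 2.4.6, pandas 2.3.3 and scipy 1.17.1 were used otherwise.

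Whole tumor and Percoll preparations were sequenced as 2 batches, so preparation was the block. Across genes tested, the whole tumor minus Percoll differences of the treatments compared correlated with r = 0.089 in CD8+ T cells and 0.21 in macrophages, where genes are not independent replicates. Total UMIs ranged from 77132398 to 176233225 over the 16 libraries, and intervals cover counting error only. On simulated data with 200 genes changed 2-fold, 54.5% were recovered for the CD8+ T cell effect and 22% for its difference, and 60.5% and 19.5% in macrophages. False calls were 8, 2, 8 and 4 in that order. Each simulated library was drawn independently from pooled gene means, without preparation or other treatment effects. Recovery in the real data may therefore differ.

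The comparison, its members and the gene lists were chosen with earlier results of these data known. Genes were named by a rule: up to 3 called members of each list with the smallest adjusted p, the 8 largest rises and falls at a mean of 50 or more CPM in the higher group with the same direction in both preparations, 5 genes from the study's text (*Gzmb*, *Ccl5*, *Ifnar1*, *Il21r* and *Ifngr1*, the last for the IFN-γ receptor it speaks of), and up to 6 genes for the difference, leaving out gating genes, receptor segments, hemoglobin genes and unnamed gene models. Up to 3 receptor segments were given with values.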

Additional observations from a re-analysis of the deposited data

Results flagged for a closer look

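For 12 genes in CD8+ T cells, 4 of them receptor segments, the effect of PancVAX with both antibodies differed from its effect without the checkpoint antibodies by edgeR's quasi-likelihood test of the difference itself, on the log2 scale. The 6 with the smallest adjusted p outside the segments come first. *Hspa1a* differed by −1.95 ± 0.24 (SE, adjusted p = 0.00355), with effects of −0.16 with and 1.79 without the antibodies. *Hist1h1d* differed by −1.83 ± 0.31 (adjusted p = 0.0377), with effects of −0.66 and 1.17, and *Gzmc* by −2.04 ± 0.32 (adjusted p = 0.0226), with −3.46 and −1.43. *Nr4a3* differed by 1.27 ± 0.19 (adjusted p = 0.0156), with 0.61 and −0.66. *Rgcc* differed by 1.78 ± 0.28 (adjusted p = 0.0226), with 2.48 and 0.70, and *Csrnp1* by 0.95 ± 0.16 (adjusted p = 0.0421), with 1.43 and 0.48. Of 20 alternatives, the call held in 17 for *Hspa1a*, 13 for *Hist1h1d*, 12 for *Gzmc* and *Rgcc*, 11 for *Nr4a3* and 9 for *Csrnp1*. *Hspa1a* lost it without the whole tumor isotype control library (−1.80, adjusted p = 0.0523). The other genes outside the segments were *Hspa1b* (−2.36 ± 0.42, adjusted p = 0.046) and *Hist1h3e* (−1.59 ± 0.28, adjusted p = 0.046). Among the 4 receptor segments called, *Trbv19* rose with the antibodies (3.09) and not without (−0.57, a difference of 3.66), and *Trbv12-1* had effects of −1.77 and 1.02 (a difference of −2.80).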

How the results depend on the processing

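Of the 45 genes called and named in CD8+ T cells, 29 kept their call under all 16 alternatives. Calls in CD8+ T cells (619) went to 316 with DESeq2, to 808 without the Percoll library of PancVAX + Anti-PD-1 and to between 248 and 371 when 1 of the 4 libraries was left out, where the lone library of a treatment is assumed to vary like the others. The preparations pair the libraries as batches: with no replicate block 253 genes were called in CD8+ T cells and 2 for the difference of the effects. Among the calls lost in that fit with no preparation term were those of *Tnf*, *Gzmb*, *Bhlhe40*, *Nfkbia*, *Nr4a1*, *Tnfrsf9*, *Il18rap* and *Il7r*. Without the upper limits on genes and UMIs *Gzmb* turned to −0.28, *Rrm2* to −0.018 and *Ifnar1* to −0.014. The causes were not tested.

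Calls for the difference in CD8+ T cells (12) went to 127 with no filter on low counts, 27 with only the 8 libraries, 126 with no upper limits, 7 with a 5% mitochondrial limit, 23 with stricter gates and 35 without the Percoll library of PancVAX + Anti-PD-1 (added after seeing the data). Leaving out 1 of the 4 libraries gave 4 to 12, and 1 PancVAX or isotype control library 3 to 6. Calls in macrophages (0) went to 12 with DESeq2, 91 with no filter, 176 with only the 4 libraries, 36 with no upper limits, 3 with *Svs* barcodes kept, 54 with stricter gates, 44 without that Percoll library and 0 to 1 when 1 library was left out. For the macrophage difference (0) the counts were 8, 63, 5 (8 libraries), 67, 2 with no hemoglobin filter, 70 with stricter gates, 30 without that library and 0 when 1 library was left out.

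The difference in share of cells with a *Havcr2* UMI ranged from −0.676 to 0.129 points when 1 library was left out. That of *Mki67* (0.05 points) was −2.06 in unthinned cells and −1.89 with no upper limits, and ranged from −2.35 to 2.45 when 1 library was left out. Those of *Ly6c2* (40.4 to 42.9), *Gzmb* (15.4 to 21.4), *Tcf7* (2.47 to 3.12) and *Pdcd1* (−7.10 to −5.38), of CD8+ T cells (5.76 to 11.8) and of macrophages (−14.3 to −6.59) kept their direction. With 2 libraries a side no permutation test over libraries can pass 0.05, and genes at a few UMIs per library are limited by depth.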

Other observations

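A TRB chain with TRBV16 recurred across treatments. Chains with the same V gene and the same translated CDR3 were found in 6 of the 8 Percoll libraries, in 100 CD8+ T cells and 4 nucleotide encodings of 42 bases. The most frequent encoding made up the 52-cell clone of both antibodies alone and was also found in 17 cells with Anti-PD-1, 7 with isotype control and 3 with PancVAX. With PancVAX plus both antibodies 11 cells carried an encoding that differed by A18G, counted from 1 at the first base of the CDR3 and shown in capitals. The others differed by C30G (2 cells, PancVAX + Anti-PD-1) and C30T (8 cells, isotype control).
Both antibodies, TRB: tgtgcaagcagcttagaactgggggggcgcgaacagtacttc
PancVAX plus both antibodies, TRB: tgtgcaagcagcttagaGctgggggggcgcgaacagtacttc
The TRA chain beside it was the same in 50 of 50 cells of both antibodies alone that had exactly 1 TRA. Another single nucleotide sequence filled 11 of 11 such cells with PancVAX plus both antibodies. These TRA sequences, printed below, translate to the same amino acids. The TRA of both antibodies alone also filled 16 of 16 such cells with Anti-PD-1, 8 of 8 with the C30T encoding under isotype control and 2 of 3 with PancVAX. Under isotype control 3 of 3 such cells with the most frequent TRB encoding had a different TRA.
Both antibodies, TRA: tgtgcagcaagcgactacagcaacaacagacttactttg
PancVAX plus both antibodies, TRA: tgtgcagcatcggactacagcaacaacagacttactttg
Over all clones, 9 translated TRB chains were found in both treatments, which is 2.23% of 403 with PancVAX and 4.33% of 208 without.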
